A study of Homo sapiens with 2 samples.

Results

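The T cell receptor complex and its nearest signalling partners were followed in K562 cells, a human erythroleukemia line, through 10 genes: CD3D, CD3E, CD3G, CD247, LCK, ZAP70, LAT, LCP2, CD2 and CD7. They were chosen by name after CD3D had been seen to be bright and lower with miR-34a on these same arrays, so the values of this contrast describe the genes and no test is made on them. All 10 had probe sets carrying their symbol alone in the platform annotation, 20 probe sets in all, out of 19775 genes with such probe sets. 1 culture had received 3 µg of a miR-34a mimic by nucleofection and the other 3 µg of a control mimic with no homology to human genes, and total RNA was taken after 24 hours. Each group was therefore 1 array of 1 culture, and no value has a replicate, which limits the precision of all values below. Both cultures were the same line and both underwent nucleofection. Bulk RNA was measured, so fewer cells with a transcript and less of it per cell cannot be told apart.

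In T cells the antigen-binding receptor chains have almost no signalling parts of their own. They are carried by the CD3 delta, epsilon and gamma chains and by the zeta chain, whose tails hold tyrosine motifs known as ITAMs. The kinase LCK phosphorylates these motifs, the kinase ZAP70 docks on them, and ZAP70 in turn phosphorylates the adaptors LAT and SLP-76, on which the downstream complex assembles. CD3D, CD3E and CD3G lie side by side on chromosome 11, and their expression is known as a mark of the T lineage. LAT and SLP-76 also act outside T cells, in platelets and mast cells among others.

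The mimic is named only miR-34a in the labels. The mature 5p strand, which usually carries that name, is shown because its seed is what target mRNAs pair with. It is given from RefSeq (GRCh38.p14, chr1:9151735-9151756, minus strand), 5′ to 3′, with the seed (bases 2 to 8) in capitals, beside hsa-miR-449a and hsa-miR-449b-5p, which have the same seed and come from chr5:55170586-55170607 and chr5:55170706-55170727 on the minus strand.
hsa-miR-34a-5p: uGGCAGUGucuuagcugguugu
hsa-miR-449a: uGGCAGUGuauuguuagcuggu
hsa-miR-449b-5p: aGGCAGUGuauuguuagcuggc
The family member hsa-miR-34c-5p also has this seed. No transcript sequence of the members was used here, so matches to this seed in their mRNAs were not analysed.

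Of the 10 genes, 3 had a probe set above background: CD3D, the adaptor gene LCP2 and, narrowly, the zeta chain gene CD247. Background was the highest signal among 27 probe sets for bacterial transcripts, 75.4 in the arbitrary units of the deposited table. By the same measure 52.8% of all genes had a probe set above background on at least 1 array. CD3D alone among the members was lower by 2-fold or more with miR-34a. The 3 other probe sets above background, of LCP2 and CD247, had log2 ratios between -0.06 and 0.21. The remaining 7 genes stayed within this background in both cultures, where a ratio carries no reading of a change. The count depends on the limit: with the 90th percentile of the same 27 probe sets, 37.1, as background, 6 of the 10 genes were above it on at least 1 array, as were 69.4% of all genes. LCK, LAT and ZAP70 were the genes added, with highest signals of 48.9, 54.5 and 37.4, all with miR-34a. Below, within background refers to the limit of 75.4.

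**Figure D1:**
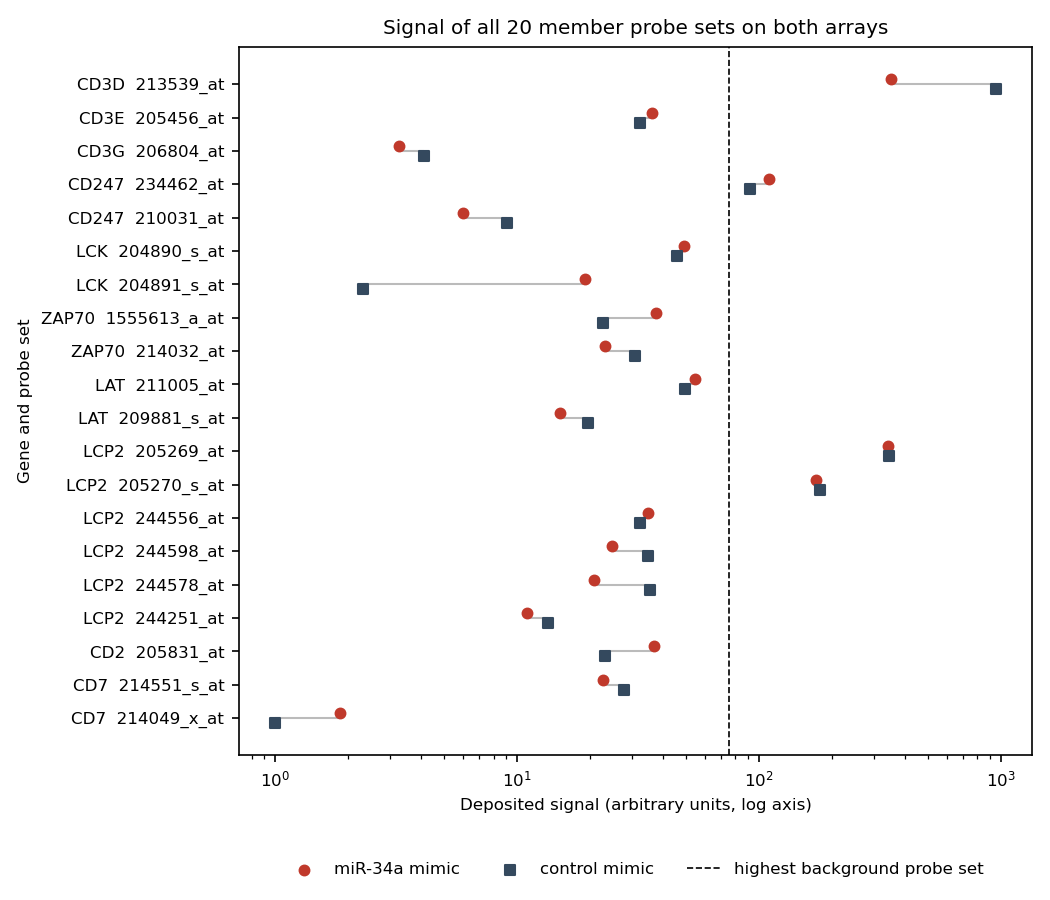
Deposited signal (arbitrary units, log axis) of each of the 20 member probe sets with the miR-34a mimic (circles) and the control mimic (squares), 1 array each, with the highest background probe set (75.4) as a dashed line. The probe sets of CD3D, 1 of CD247 and 2 of LCP2 lie right of the line, and CD3D has the widest gap among these, 351.9 against 953.6.

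CD3D encodes the delta chain of CD3, which pairs with the epsilon chain inside the receptor. Its single probe set (213539_at) had a signal of 351.9 in miR-34a cells and 953.6 in control cells, a ratio of 0.369 or a 2.71-fold lower signal. Both readings were clear of background, at 4.67 times its highest probe set with miR-34a and 12.6 times with the control. After adding a pseudocount of 14.9 and centring, the log2 ratio was -1.41. It ranked 21st from the lowest of 12774 genes that passed a filter on level, a mean log2 level at or above the median of all probe sets. Of those genes 0.548% were lower by 2-fold or more and 0.595% higher by 2-fold or more, and of probe sets above background 0.654% were lower by 2-fold or more. Among the 2931 probe sets within 0.5 of the mean log2 level of CD3D, 1.02% were lower by 2-fold or more, and the central 95% of log2 ratios ran from -0.75 to 0.62. CD3D has no second probe set on the array, so its value has no internal check. Across 5494 genes with several probe sets passing the filter, the spread between probe sets of a gene was 0.22 on the log2 scale, per probe set. It is the standard deviation of the difference between the brightest pair of a gene, divided by the square root of 2. It covers probe sets and not cultures.

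CD3E, the epsilon chain that is part of every CD3 dimer with delta or gamma, had a signal of 36.1 with miR-34a and 32.2 with the control. CD3G, the gamma chain, had 3.25 with miR-34a and 4.12 with the control. Both genes were within background on both arrays, on 1 probe set each.

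CD247, the gene of the zeta chain that carries most of the receptor's ITAMs, had discordant probe sets. The brighter one (234462_at) read 109.8 with miR-34a and 92.3 with the control, or 1.46 times the highest background with miR-34a and 1.22 times with the control, at a log2 ratio of 0.21. The other (210031_at) read 5.99 with miR-34a and 9.07 with the control, far inside background. Whether both read the same transcript was not tested, and the difference of the brighter one is about the size of the spread between probe sets of a gene.

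**Figure D2:**
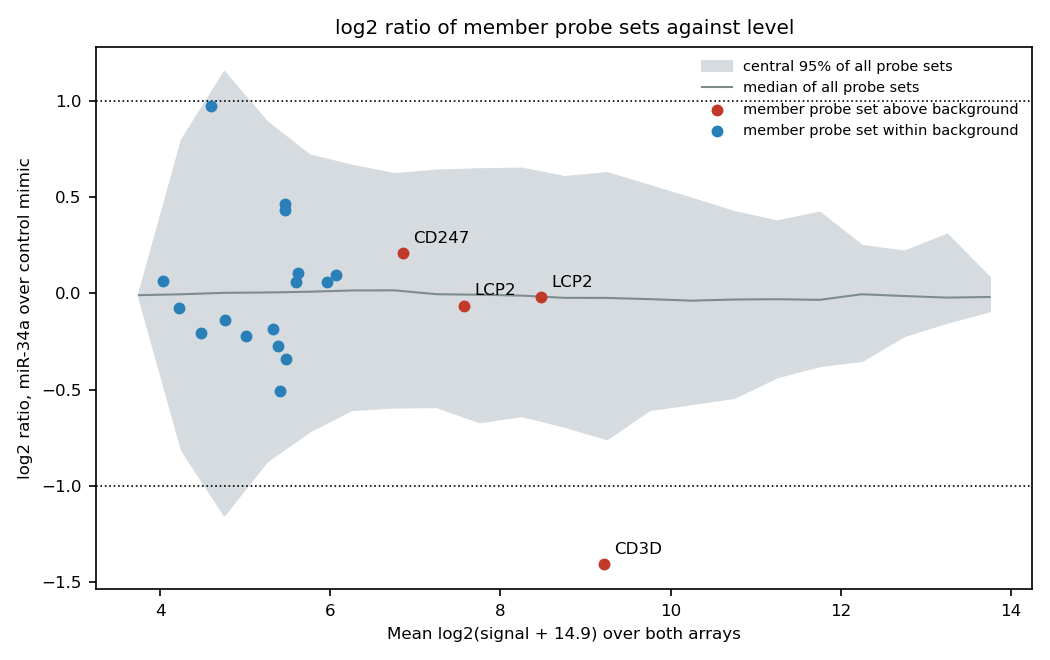
log2 ratio of miR-34a over control mimic for the 20 member probe sets against mean log2 level, with the median (line) and the central 95% (grey band) of all probe sets in steps of 0.5 of level, and dotted lines at 2-fold. CD3D, at -1.41, lies below the band, and the other 19 probe sets lie inside it.

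The kinases of the receptor were both within background. LCK, the SRC family kinase that starts the signal, read 48.9 with miR-34a and 45.9 with the control on its brighter probe set. Its dimmer probe set read 19.2 with miR-34a and 2.30 with the control, an 8.33-fold ratio of signals inside background, which became a log2 ratio of 0.98 with the pseudocount. ZAP70 read 37.4 and 23.1 with miR-34a on its 2 probe sets, against 22.7 and 30.7 with the control, so its probe sets went in opposite directions. Over the 34282 probe sets within background on both arrays, the central 95% of log2 ratios ran from -0.89 to 0.91, which shows how widely such dim readings scatter.

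LCP2, the gene of the adaptor SLP-76, was the second member clearly above background, and it kept nearly the same level in both cultures. Its brightest probe set (205269_at) had 341.2 with miR-34a and 343.7 with the control, at a log2 ratio of -0.02. The next (205270_s_at) had 171.6 with miR-34a and 178.9 with the control, at -0.06. Both lay closer to no change than the spread of 0.22 between probe sets of a gene. The other 4 probe sets of LCP2 read 11 to 34.7 with miR-34a and 13.4 to 35.6 with the control, all within background. LAT, the membrane adaptor that SLP-76 joins through the bridging adaptor GADS, read 54.5 with miR-34a and 49.7 with the control on its brighter probe set. The other read 15.0 with miR-34a and 19.7 with the control, so all 4 readings were within background.

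The surface receptors CD2, which binds CD58 on partner cells, and CD7, an early marker of the T lineage, were within background. CD2 read 36.8 with miR-34a and 23.1 with the control. CD7 read 22.7 with miR-34a and 27.6 with the control on its brighter probe set. Its other probe set read 1.85 with miR-34a and 1 with the control, where 1 is the floor of the table. In all, the 16 member probe sets within background spanned 1.85 to 54.5 with miR-34a and 1 to 49.7 with the control, with 8 lower and 8 higher. Summed over the 19 probe sets other than that of CD3D, the signal was 1018 with miR-34a and 999.2 with the control. Of the 10 genes 5 passed the filter on level, CD3D, CD247, LCK, LAT and LCP2, and 1 of these 5 was lower by 2-fold or more. That share is set by the choice of CD3D and nothing is read from it.

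The CD3 genes lie next to each other, so the 5 protein-coding genes on each side in the RefSeq gene table (GRCh38.p14) were read as chromosomal neighbours. Beyond CD3E lie MPZL2, MPZL3, JAML, SCN2B and SCN4B, genes of adhesion molecules and sodium channel subunits. All 5 were within background, with no signal above 30.6 on either array. Beyond CD3G lie UBE4A, ATP5MG, KMT2A, TTC36 and TMEM25, of which the first 3 were above background. CD3D therefore was the only measured protein-coding gene above background in the run from SCN4B to CD3G, and the nearest such gene on the other side of CD3G was UBE4A.

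UBE4A, which encodes a ubiquitin chain assembly factor, read 995.2 with miR-34a and 809.1 with the control, at a log2 ratio of 0.28. ATP5MG, a subunit of mitochondrial ATP synthase, had 4 probe sets above background. Its brightest read 6181 with miR-34a and 5949 with the control, and all 4 log2 ratios lay between -0.00 and 0.05. KMT2A, the histone methyltransferase gene also known as MLL, was lower on each of its 5 probe sets above background, with log2 ratios between -0.53 and -0.25 and signals of 385.7 with miR-34a and 459.3 with the control on the brightest. None of the 10 flanking genes changed by 2-fold on a probe set above background.

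**Figure D3:**
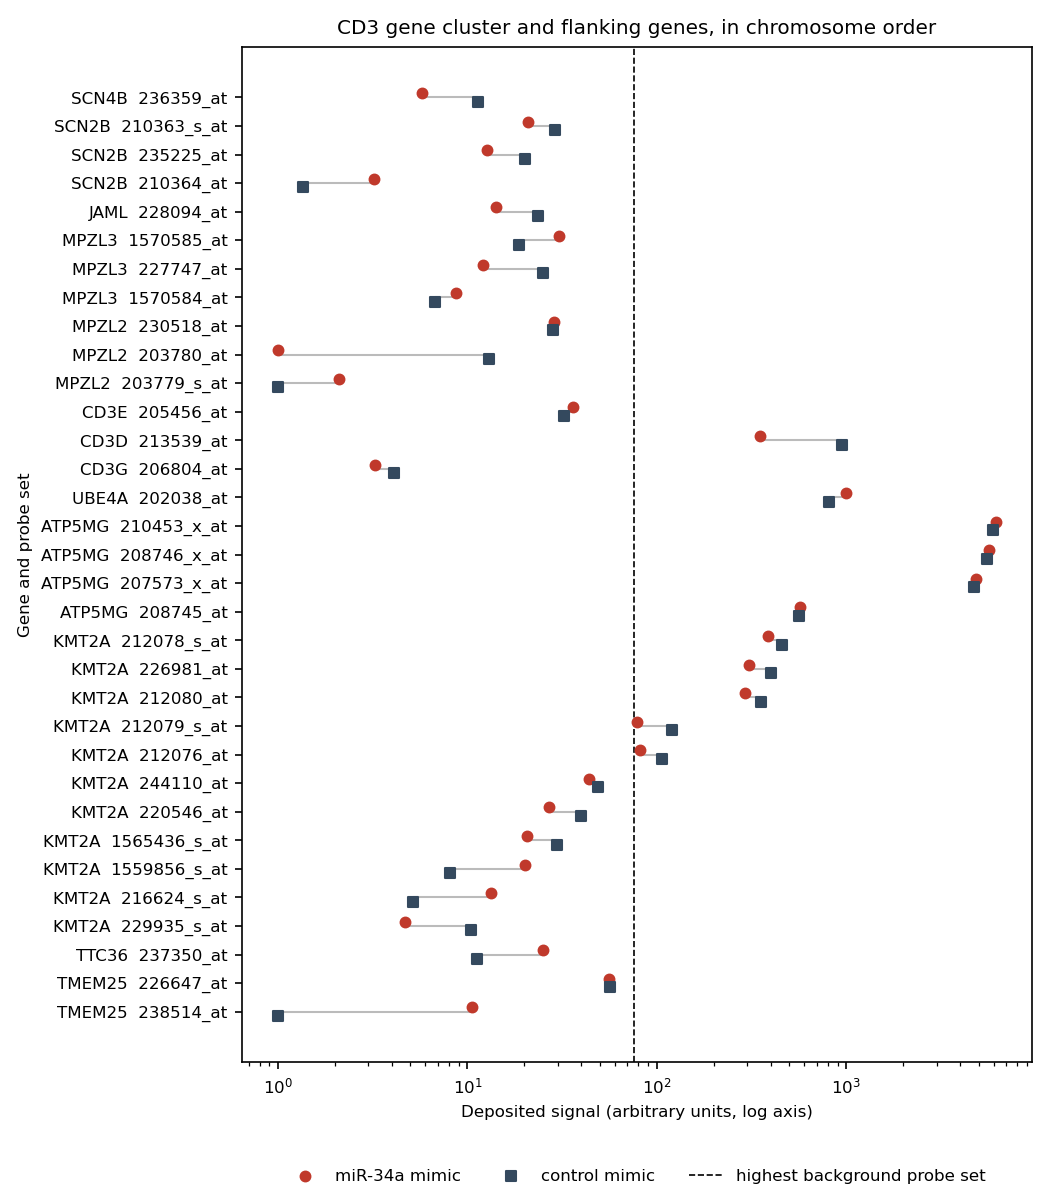
Deposited signal (arbitrary units, log axis) of every probe set of CD3E, CD3D, CD3G and the 5 protein-coding genes on each side, in chromosome order, with the miR-34a mimic (circles) and the control mimic (squares), 1 array each, and the highest background probe set (75.4) as a dashed line. CD3D stands right of the line between genes left of it, and UBE4A, ATP5MG and KMT2A, also right of it, have smaller gaps than CD3D.

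The promoters of the 2 members clearly above background, CD3D and LCP2, are printed because these genes were detected in the same cells and differed in their ratio. Each runs from 250 bases before to 50 after the gene's start in RefSeq (GRCh38.p14), 5′ to 3′ on the gene's strand, the minus strand for both: chr11:118342656-118342955 for CD3D and chr5:170297728-170298027 for LCP2. Capitals mark GGAAG or its reverse complement CTTCC, a core of sites of ETS family factors. The same search marked GATAA or TTATC, a core of GATA sites, and the E-box CANNTG, and neither was in these windows.
CD3D promoter: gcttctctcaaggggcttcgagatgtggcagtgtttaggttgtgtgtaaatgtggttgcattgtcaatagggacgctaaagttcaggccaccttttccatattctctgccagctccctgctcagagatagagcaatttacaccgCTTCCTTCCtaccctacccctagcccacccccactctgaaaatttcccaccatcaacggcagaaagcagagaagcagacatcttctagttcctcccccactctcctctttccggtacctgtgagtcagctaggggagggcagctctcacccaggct
LCP2 promoter: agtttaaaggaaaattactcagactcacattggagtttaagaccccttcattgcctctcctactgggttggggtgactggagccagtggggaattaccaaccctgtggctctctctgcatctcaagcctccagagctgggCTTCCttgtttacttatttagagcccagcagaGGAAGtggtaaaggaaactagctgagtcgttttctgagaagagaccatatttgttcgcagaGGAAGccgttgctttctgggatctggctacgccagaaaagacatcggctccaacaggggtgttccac
The ETS letters occurred 2 times in the CD3D window, sharing a base, and 3 times in that of LCP2, where they are part of 71.9% of all 35116 promoters in the table. The GATA letters were in 22.7% of all promoters and the E-box in 68.7%, counting both strands. RefSeq promoters were matched for 7 of the 10 members, with 11 windows in all, and the ETS letters were in 9 of these, the E-box in 7 and the GATA letters in 1, a window of LCK. A match of letters describes the window and is no sign of binding.

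Other genes of the receptor pathway, and genes related to it by family or lineage, were read in lists by role. They were counted where the brightest probe set passed the filter on level, and named where it was above background on at least 1 array. The counts and medians therefore include genes within background, whose ratios carry no reading of a change. For comparison, 6387 of 12774 genes were lower and 6387 higher, by construction of the centring. Of the 86 genes counted in these 8 lists, 1 was lower by 2-fold or more, LEF1, and 1 higher by 2-fold or more, YES1. LEF1 was on the list of T lineage transcription factors and YES1 on that of SRC family kinases. Over all 12774 genes these shares were 0.548% lower and 0.595% higher.

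Of the receptor chains, the constant region of the beta chain, TRBC1, was above background on all of its 3 probe sets. They read 290.6, 203.3 and 136.6 with miR-34a against 341.3, 311.7 and 172.2 with the control, so each was lower with miR-34a, at log2 ratios of -0.23, -0.59 and -0.31. All 3 belong to probe set classes that can bind related transcripts. PTCRA, the stand-in alpha chain of immature T cells, had 255.2 with miR-34a and 181.1 with the control on its brightest probe set, at 0.45. Its next probe set gave 0.29, with a control signal within background, and its dimmest, within background, gave -0.30. All 3 probe sets of PTCRA belong to the same classes. The alpha chain constant gene TRAC had no probe set with its symbol alone and was not analysed here.

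Coreceptors and costimulatory molecules were mostly dim. Of 14 listed genes on the array 2 were above background, where 52.8% of all genes were. CD58, the partner that CD2 binds, had 837.4 with miR-34a and 566.4 with the control, at a log2 ratio of 0.54, and its 5 probe sets lay between 0.19 and 0.56. CD8B had 173.0 with miR-34a and 136.1 with the control, at 0.31, and 0.16 on a second probe set within background. Of the 8 that passed the filter, 2 were lower and 6 higher, with a median log2 ratio of 0.32 and 0 past 2-fold, where the median over all genes is 0.00. Above background 0 of these were lower and 2 higher, so this median rests mostly on genes within background.

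Kinases, phosphatases and ubiquitin ligases that act near the receptor gave 2 lower and 9 higher of 11 genes, with a median of 0.15 and 0 past 2-fold. CBLB, a ubiquitin ligase that restrains receptor signalling, was highest, with 206.9 in miR-34a cells and 114.2 in control cells, a log2 ratio of 0.77. The phosphatase PTPRC (CD45), which activates LCK, followed at 0.49, and at 0.28 on its second probe set, with 1118 in miR-34a cells and 784.4 in control cells. CBL and CSK, the kinase that restrains LCK, were lowest, both at -0.22, and the second probe set of CBL gave -0.57. SYK, the relative of ZAP70 used by other blood cells, was above background at 258.7 with miR-34a and 226.0 with the control on its brightest probe set, at 0.17.

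Among the other SRC family kinases 4 genes passed the filter, 1 lower and 3 higher with a median of 0.09, and YES1 was the gene past 2-fold. Its brightest probe set had 4104 with miR-34a and 1831 with the control, at a log2 ratio of 1.15, and its second had 1924 with miR-34a and 791.8 with the control, at 1.26. FYN, the other SRC family kinase of T cells, had 492.4 with miR-34a and 434.8 with the control, at 0.16. LYN had 1397 with miR-34a and 1392 with the control, at -0.00, and its second probe set gave -0.17. YES1, FYN and LYN were above background. The other 4 of the 7 listed on the array were within it, as LCK was, with no signal above 51.1.

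Adaptors and proximal effectors gave 7 lower and 15 higher of 22 genes, with a median of 0.09 and 0 past 2-fold. FYB1, an adaptor that binds SLP-76, had 96.7 with miR-34a and 52.3, within background, with the control, at 0.72, and its next probe set gave 0.89. SKAP2 had 300.7 with miR-34a and 210.6 with the control, at 0.48, although another of its probe sets gave -0.36. SH2D1A and NCK1 were lowest, at -0.29 and -0.22, and the miR-34a signal of SH2D1A, 71.8, lay within background. The second probe sets gave -0.04 for SH2D1A and -0.29 for NCK1.

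The calcium, NFAT and NF-kB arm gave 12 lower and 6 higher of 18 genes, with a median of -0.07 and 0 past 2-fold. The calcineurin subunit gene PPP3CB, at 391.7 with miR-34a and 238.0 with the control, had a log2 ratio of 0.68 and a second probe set at 0.58. The inositol trisphosphate receptor genes went apart: ITPR1 was at 0.65 and higher on all 4 of its probe sets that passed, and ITPR3 was at -0.63, with 352.3 in miR-34a cells and 551.4 in control cells, and at -0.16 on its second probe set. The kinase gene IKBKB had -0.48 on the only probe set that passed the filter.

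Transcription factors listed for the T lineage gave 9 lower and 7 higher of 16 genes, with a median of -0.08. TAL1 is also on the list of erythroid markers below, so not every gene of this list is particular to T cells. LEF1, a factor of early T cell development that acts with beta-catenin, was the gene past 2-fold. It had 258.4 in miR-34a cells and 670.1 in control cells, a log2 ratio of -1.33. Its second probe set gave -1.47, and another was near the floor. All of them belong to probe set classes that can bind related transcripts. MYB, a factor of blood progenitors and thymocytes, was at -0.79, with 1748 in miR-34a cells and 3023 in control cells, and at -0.56 on a second probe set within background. LMO2 and LYL1, which act with TAL1, were highest at 0.38 and 0.30, and a second probe set of LMO2, within background, gave 0.06.

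Other receptors with ITAMs, or with partners that carry them, gave 0 lower and 6 higher of 6 genes, with a median of 0.14 and 0 past 2-fold. Above background 0 of these were lower and 4 higher. GP6, the collagen receptor of platelets, which signals through LAT and SLP-76, had 1250 with miR-34a and 750.4 with the control, a log2 ratio of 0.72 on the only probe set that passed. The B cell receptor genes CD79A and CD79B were above background at 0.04 and 0.17, and FCGR2A at 0.11.

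**Figure D4:**
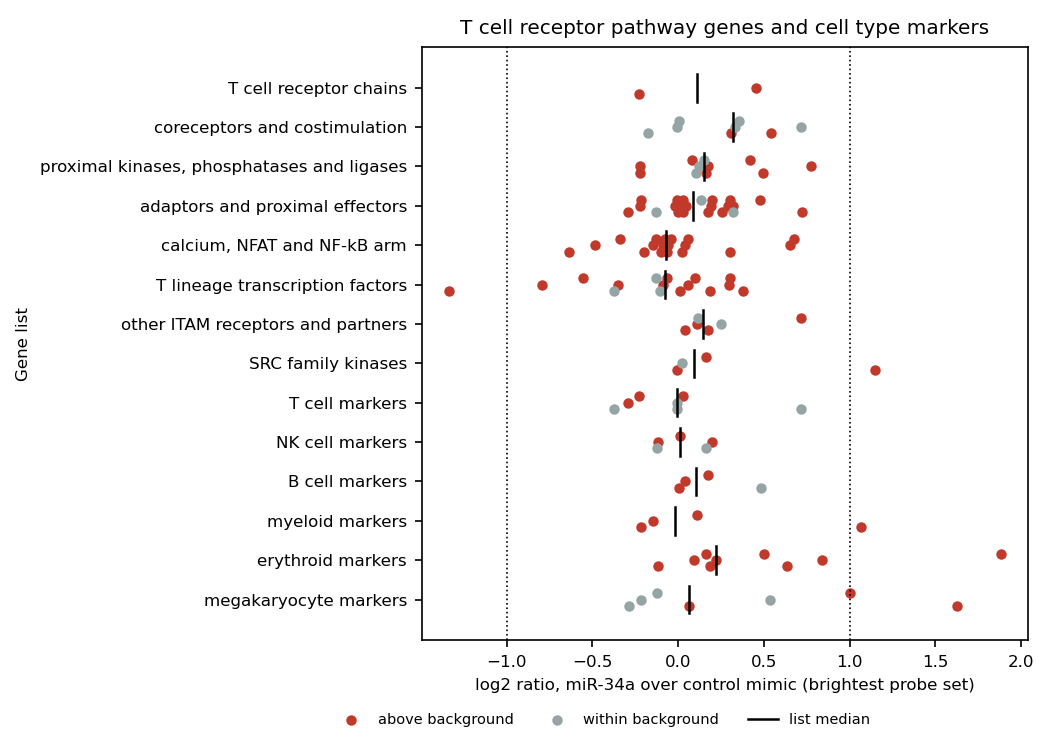
log2 ratio of miR-34a over control mimic for the brightest probe set of each listed gene that passed the filter, by list, with genes above background in red, genes within background in grey, the list median as a black bar and dotted lines at 2-fold. LEF1 at -1.33 is left of the lower line, and YES1 at 1.15 right of the upper one.

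Markers of blood cell types were read to see whether the CD3D signal came with other T cell transcripts. Of 12 T cell markers on the array 3 were above background, TRBC1, SH2D1A and SKAP1, where 52.8% of all genes were. The other 9 read 1 to 63.1 with miR-34a and 1 to 68.6 with the control. With miR-34a against the control, CD5 had 11.1 against 15.2, CD28 had 4.83 against 26.0 and BCL11B had 49.9 against 68.6. The opposite direction was read for CD6, 62.6 against 32.0, and CD8A, 26.2 against 21.5. IL7R had 16.3 against 16.6 and CCR7 had 63.1 against 63.0. CD4 had 54.2 on both arrays, and CD27 was at the floor on both. The summed signal of the 12 T cell markers was 787 with miR-34a and 862 with the control. SKAP1, a T cell adaptor, had 135.7 with miR-34a and 131.7 with the control, at a log2 ratio of 0.03. Of the 7 T cell markers that passed the filter 5 were lower and 2 higher, with a median of -0.01 and 0 past 2-fold. Above background 2 of these were lower and 1 higher. On the arrays where CD3D read above background, TRBC1 and SKAP1 thus did so too, and SH2D1A on at least 1 of them. The other 9 T cell markers, CD3E and CD3G read within background on both.

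The counts of markers above background that follow stand beside the share of 52.8% over all genes. NK cell markers had 3 of 12 above background, GNLY at 0.01, GZMB at -0.12 and PRF1 at 0.20. The other probe set of PRF1 that passed the filter gave -0.10. The sums over the 12 were 691 with miR-34a and 679 with the control. B cell markers had 3 of 9, CD22, CD79A and CD79B, at 0.01 to 0.17, with sums of 1029 with miR-34a and 999 with the control. Myeloid markers had 4 of 9, with sums of 1035 with miR-34a and 930 with the control. LYZ was at 0.11, CSF1R at -0.14 and CSF3R at -0.22, and SPI1 at 1.07 had a control signal within background. The erythroid list was the only marker list with every gene on the array, 9 of 9, above background, with sums of 30330 with miR-34a and 25416 with the control. Of these KLF1 was at 0.10, TFRC at -0.12 with -0.28 on its second probe set, HBZ at 0.84 and ALAS2, with a control signal within background, at 1.88. Megakaryocyte markers had 3 of 7, VWF, ITGA2B and TUBB1, with sums of 997 with miR-34a and 589 with the control. VWF was at 0.06. ITGA2B was just short of 2-fold on the log2 scale on its brightest probe set, at a signal ratio of 2.1, and past it at 1.56 on its other. TUBB1 was at 1.62, and at 0.44 on a second probe set within background.

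The 5 genes whose pair of log2 signals lay nearest to that of CD3D were ARHGAP1, CDCA7, UQCC6, SLC29A1 and APOC1. They lay at Euclidean distances of 0.09 to 0.23 over the 2 arrays. By this choice their ratios on the nearest probe set resemble that of CD3D, and only their other probe sets add a reading. ARHGAP1 was the nearest, with 358.0 in miR-34a cells and 1012 in control cells, a log2 ratio of -1.47. Its other probe set that passed the filter gave 0.30, the opposite direction. SLC29A1 and APOC1 were lower by 2-fold or more on both of their probe sets, at -1.44 and -1.15 for SLC29A1 and -1.66 and -1.34 for APOC1. CDCA7 and UQCC6 had -1.17 and -1.13 on the nearest probe set and -0.56 and -0.36 on the other. With 2 arrays, this likeness is no more than a pair of similar readings, and each reading also depends on how its own probes bind.

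RNA quality was close but not equal on both arrays. The 3′ to 5′ signal ratio, which grows with degradation, was 3.53 with miR-34a and 3.07 with the control for GAPDH. For ACTB it was 4.54 with miR-34a and 4.30 with the control. The part of RNA quality in the CD3D difference was not tested.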

How the data were processed

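RNA of 2 K562 cultures, 1 with a miR-34a mimic and 1 with a control mimic, was measured on Affymetrix arrays, with biotin-labelled cRNA made by the manufacturer's standard method, per the labels' protocols. The authors deposited probe set intensity values on a linear scale with a floor of 1. How these values were computed, corrected for background and scaled is not given in the sources used here. Dim values depend on those steps most. All 54675 probe sets were processed together. Log2(intensity + 14.9) was taken, with the 25th percentile of the deposited intensity values as pseudocount, and the median ratio of genes passing the filter, 0.0090, was subtracted, so a ratio understates the change of dim genes. The filter was a mean log2 level at or above the median of probe sets other than controls, a signal near 39.0. Symbols came from the platform annotation, where 41091 probe sets had 1, 1801 several and 11721 none, and only the first kind was used. A gene took its brightest probe set. Of 185 listed symbols 22 had no probe set of that kind.

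With 1 array per group no test was possible, and genes were counted at 2-fold. Members and lists were chosen with earlier results of these data known. Named were all members, the cluster neighbours, of each list the 2 highest and 2 lowest above background and any past 2-fold, and the 5 genes nearest CD3D. SYK and the 9 T cell markers within background were named after their values were seen. Alternatives changed the pseudocount, centring, normalization, filter, probe sets used, threshold and background. The calculation was checked on simulated data. Python 3.11.15, NumPy 2.4.6, pandas 2.3.3, statsmodels 0.14.6 and matplotlib 3.10.9 were used.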

Additional observations from a re-analysis of the deposited data

How the results depend on the processing

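The log2 ratio of CD3D lay between -1.44 and -1.31 under the 7 alternatives run for it (pseudocount 0.25 or 4 times as large, no centring, quantile, loess, mean of probe sets, and without the _s_at, _x_at and _a_at classes), and it was past 2-fold in each. The last 2 keep the single probe set of CD3D by construction, so 5 of the 7 bear on its value. LCP2 lay between -0.04 and -0.00 and CD247 between 0.15 and 0.23. Of 56 values of the other members, 2 moved by more than the spread of 0.22 between probe sets, both of ZAP70, which is within background (9 of the 56 keep the same probe set by construction, which leaves 47): 0.23 with 4 times the pseudocount and -0.27 without the less specific classes, against 0.46. Members above background numbered 6 with the 90th percentile of the background probe sets, 37.1, as the limit, against 3. Genes 2-fold lower and higher numbered 41 and 28 with 4 times the pseudocount, 206 and 215 with no filter, 46 and 42 with a stricter filter, the 75th percentile of level, and 384 and 419 at 1.5-fold, against 70 and 76. Adding probe sets with several symbols was not run, since none held a member. The lists were not recounted with them, and 6 listed symbols occur only there. Dim signals limit what can be read for 7 of the 10 members, and no value covers differences between cultures.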
